A study of Homo sapiens with 6 samples.

Results

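The genes described here are the clustered replication-dependent histone genes, which supply histone protein to chromatin while DNA is copied. They were taken as the rows whose symbol begins HIST1H, HIST2H, HIST3H or HIST4H and whose mean over the 6 libraries was at least 1 FPKM (fragments scaled by transcript length and by library size). Of 25277 rows, 72 had such a symbol and 58 reached that level: 4 H1, 14 H2A, 18 H2B, 10 H3 and 12 H4 genes. Of the 14 rows below it, 10 were listed at 0 in every library.

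The libraries were made from the human lines Jeko and Rec-1, both of mantle cell lymphoma (a cancer of B cells), in a series on NR4A1 inhibition together with the kinase inhibitor ibrutinib. The Jeko control and the Rec-1 control each carried an empty CRISPR/Cas9 vector. The other 4 libraries, Jeko sgRNA 1 and 2 and Rec-1 sgRNA 1 and 2, carried a vector with a guide RNA against NR4A1, a nuclear receptor gene. All were stable lines with a tet-on vector and had been given doxycycline for 48 h, the controls included, and no ibrutinib treatment is named for any of them. Each line had 1 control and 2 sgRNA libraries, and nothing states that the libraries came from separate cultures, so p-values measure only the spread between these libraries.

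Most replication-dependent histone mRNAs carry no poly(A) tail. Their 3′ end is formed by cleavage after a short stem-loop that is bound by SLBP, and the mRNAs are made in S phase and degraded when DNA synthesis stops. Some of these genes also give polyadenylated transcripts, which are known from differentiated or resting cells. H2A, H2B, H3 and H4 form the nucleosome core and H1 binds the linker DNA between nucleosomes.

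NR4A1 itself measured 5.99 FPKM in Jeko with the empty vector, then 3.89 and 4.44 with guides 1 and 2, whereas the library labelled Rec-1 control gave 11.6 and those labelled Rec-1 sgRNA 1 and 2 gave 27.4 and 12.7. In Rec-1 it was thus higher in both sgRNA libraries than in the control. The library labelled Rec-1 control was also less like the libraries labelled Rec-1 sgRNA 1 and 2 than like the Jeko control. Over 10269 protein-coding genes outside the family, its Pearson correlation was 0.989 with the Jeko control and 0.806 and 0.813 with Rec-1 sgRNA 1 and 2. CCND1, the cyclin gene that marks mantle cell lymphoma, ranged from 442 to 815 FPKM over the Jeko libraries. It reached 495 FPKM in the Rec-1 control, while Rec-1 sgRNA 1 and 2 gave 0.696 and 0.592. The B-cell gene CD79A was at 265 to 596 FPKM in all 6 libraries. Among T-cell markers, CD3D was 66.3 and 95.3 FPKM in Rec-1 sgRNA 1 and 2 and at most 0.438 elsewhere, CD3E and CD3G were also highest there, and CD2 did not exceed 0.0291 in any library. Rec-1 sgRNA 1 alone had a value for the replication-independent histone gene H3F3A, 565 FPKM, where the other 5 libraries listed it at 0. The part of these differences in the results on Rec-1 was not tested, and comparisons with the Rec-1 control are given beside those without it.

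The stem-loop was found next to the coding sequence of nearly every member that could be placed on the genome. The annotation of GRCh37, the build named hg19 in the submitters' processing notes, held 55 of the 58 members, and 54 of them had a stop codon. The histone stem-loop was searched for on the coding strand within 150 bases after the stop codon, as a run of 16 bases that opens with GG and closes with CC, whose stem ends in a pair of T and A and whose 4-base loop has T as the first base and as the third, all other bases being free. It was present in 54 of those 54. The 16 bases of HIST1H4C, the H4 gene of highest mean level, were not read out. In the other 53 members the 16 bases came in 9 versions. Those of all 10 H4 genes among them began GGCCC, against 0 of the 43 in the other classes. The sequences below show both main forms, in genes described below: leading members of each class, HIST1H2BC with its polyadenylated transcripts, and the H4 genes HIST1H4B and HIST1H4L, whose differences from the Jeko control were among the largest, with the 16 bases in capitals.

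HIST1H1C, chr6:26055967-26055992 (minus strand): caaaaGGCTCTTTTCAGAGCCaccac
HIST1H3B, chr6:26031820-26031845 (minus strand): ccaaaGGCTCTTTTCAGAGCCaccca
HIST1H2AI, chr6:27776420-27776445 (plus strand): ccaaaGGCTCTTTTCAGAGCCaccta
HIST1H2BK, chr6:27114140-27114165 (minus strand): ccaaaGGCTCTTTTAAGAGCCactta
HIST1H2BC, chr6:26123695-26123720 (minus strand): ccaaaGGCTCTTTTAAGAGCCaccca
HIST1H4B, chr6:26027124-26027149 (minus strand): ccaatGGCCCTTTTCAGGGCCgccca
HIST1H4E, chr6:26205224-26205249 (plus strand): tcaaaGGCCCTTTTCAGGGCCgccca
HIST1H4L, chr6:27840926-27840951 (minus strand): tcaaaGGCCCTTCTCAGGGCCaccca

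The version of HIST1H1C, HIST1H3B and HIST1H2AI was shared by 33 members, and that of HIST1H4B and HIST1H4E by 7, all H4. The version of HIST1H2BK and HIST1H2BC was carried by 6 members. Of these, HIST1H2BC, HIST1H2BD, HIST1H2BJ and HIST1H2BK are known for polyadenylated transcripts, and the others are HIST1H3G and HIST2H2AB. These members thus had the stem-loop as well.

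Promoter elements also differed by class. RefSeq promoters (GRCh38.p14, from 250 bases before to 50 after the start) were matched for 52 members. Motifs were searched on both strands, and matches could overlap. TATAAA was present in 33 of 52, or 63.5%, against 12% of all 27305 promoters in the table. CCAAT was in 45 of 52, or 86.5%, against 35.7%, and was in every matched H1, H2A, H2B and H3 promoter but in 3 of 10 H4 promoters. The octamer ATTTGCAT, the site of POU2F1, was in 10 of 13 H2A and 13 of 17 H2B promoters, in 1 of 8 H3 and in 0 of 4 H1 and 10 H4 promoters, against 1.8% of all promoters. That H3 promoter, of HIST1H3D, was the same stretch as the promoter of the H2A gene HIST1H2AD. Its octamer and CCAAT were thus counted in both classes. Several H2A and H2B promoters on opposite strands also largely overlapped, such as those of HIST1H2AC with HIST1H2BC and of HIST1H2AE with HIST1H2BG. Matches in the shared stretch were counted in both classes, so the H2A and H2B counts are not independent. AAACACA, known as the H1 box, was in 4 of 4 H1 promoters and in 5.76% of all. The promoters of the leading H1 gene, the leading H2B gene and an H4 gene among the highest with sgRNA show these layouts, with every match to the 4 motifs in capitals.

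HIST1H1C, chr6:26056421-26056720 (minus strand): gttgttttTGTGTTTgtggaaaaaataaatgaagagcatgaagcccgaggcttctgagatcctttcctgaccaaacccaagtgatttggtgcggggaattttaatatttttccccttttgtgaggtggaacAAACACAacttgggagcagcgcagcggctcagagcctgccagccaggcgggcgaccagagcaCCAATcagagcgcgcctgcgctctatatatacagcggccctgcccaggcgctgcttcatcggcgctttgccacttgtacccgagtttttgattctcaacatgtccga
HIST1H2BK, chr6:27146809-27147108 (minus strand): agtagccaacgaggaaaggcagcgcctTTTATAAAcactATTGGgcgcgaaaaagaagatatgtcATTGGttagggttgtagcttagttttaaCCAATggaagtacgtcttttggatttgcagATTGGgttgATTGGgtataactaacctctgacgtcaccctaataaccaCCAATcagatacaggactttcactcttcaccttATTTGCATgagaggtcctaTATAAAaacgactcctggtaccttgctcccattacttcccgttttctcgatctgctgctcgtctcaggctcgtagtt
HIST1H4B, chr6:26027234-26027533 (minus strand): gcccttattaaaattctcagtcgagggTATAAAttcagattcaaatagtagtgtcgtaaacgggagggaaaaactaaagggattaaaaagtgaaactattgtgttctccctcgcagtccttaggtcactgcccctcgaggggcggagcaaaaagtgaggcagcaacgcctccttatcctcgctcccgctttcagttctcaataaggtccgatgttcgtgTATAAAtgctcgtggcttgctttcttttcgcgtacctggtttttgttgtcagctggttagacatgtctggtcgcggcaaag

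The HIST1H1C promoter held the H1 box and CCAAT, that of HIST1H2BK held the octamer besides CCAAT and also TATAAA, and that of HIST1H4B held TATAAA alone of the 4.

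The sum over the 58 members came to 230 FPKM for the Jeko control, 1017 for Jeko sgRNA 1 and 1015 for Jeko sgRNA 2. For Rec-1 it came to 1726 FPKM without an sgRNA, 927 for sgRNA 1 and 1601 for sgRNA 2. Which genes made up that sum differed from library to library. In the Jeko control, H2B genes held 32.8% of it and H1 genes 21.5%. In the Jeko sgRNA libraries H4 genes held the largest share, 36.9% and 40.0%. In the Rec-1 control, H1 and H2B genes held 45.8% and 33.3%, and H4 genes 7.38%. In Rec-1 sgRNA 1 and 2, H4 genes again led, with 28.8% and 52.2%.

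**Figure D1:**
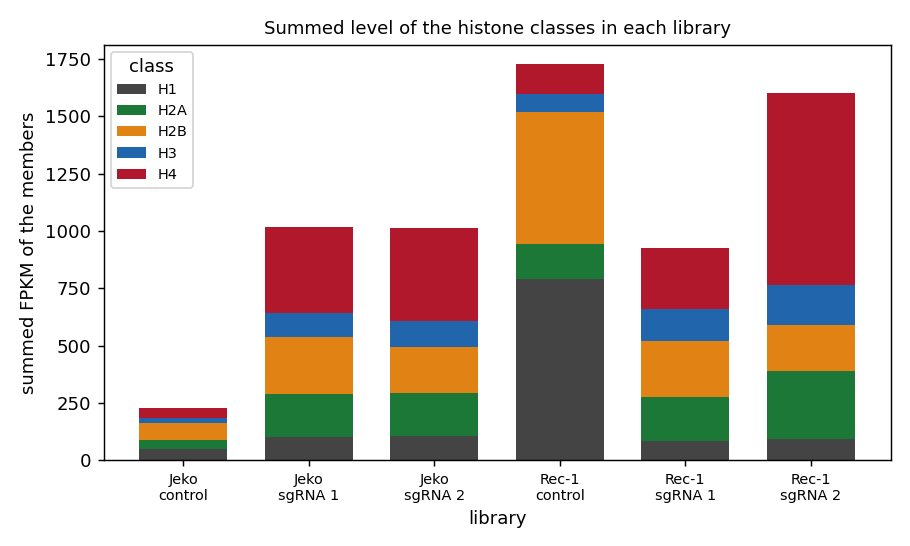
Summed FPKM of the 58 members in each of the 6 libraries (bars from 0), split by histone class. The Jeko control has the lowest sum, 230, the Rec-1 control is made up mostly of H1 and H2B, and H4 is the largest part in all 4 sgRNA libraries.

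A few genes held much of these sums. HIST1H1C, a linker histone H1 gene (chr6:26055968-26056698), stood at 37.6 FPKM in Jeko control cells, against 37.6 and 47.9 under sgRNA 1 and 2, while Rec-1 had 763 in its control, against 26.3 and 33.6 under sgRNA 1 and 2. HIST1H2BK, an H2B gene (chr6:27114140-27114634), measured 10.5 FPKM in Jeko with the empty vector, then 10.5 and 16.4 with guides 1 and 2, whereas in Rec-1 it measured 358 with the empty vector, then 24.7 and 23.4. Both were thus high in 1 library, the Rec-1 control, and between 26.3 and 47.9 FPKM (HIST1H1C) or 10.5 and 24.7 FPKM (HIST1H2BK) in the other 5. HIST1H4C, an H4 gene (chr6:26104161-26104565), stood at 5.19 FPKM in Jeko control cells, against 96.9 and 98.7 under sgRNA 1 and 2, while Rec-1 had 13.2 in its control, against 77.7 and 201 under sgRNA 1 and 2. It was the leading H4 gene and had both controls far below all 4 sgRNA libraries. It lies within the annotated span of HIST1H2BC on the opposite strand (chr6:26086545-26124154), and whether counting used strand is not given in the sources used here.

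**Figure D2:**
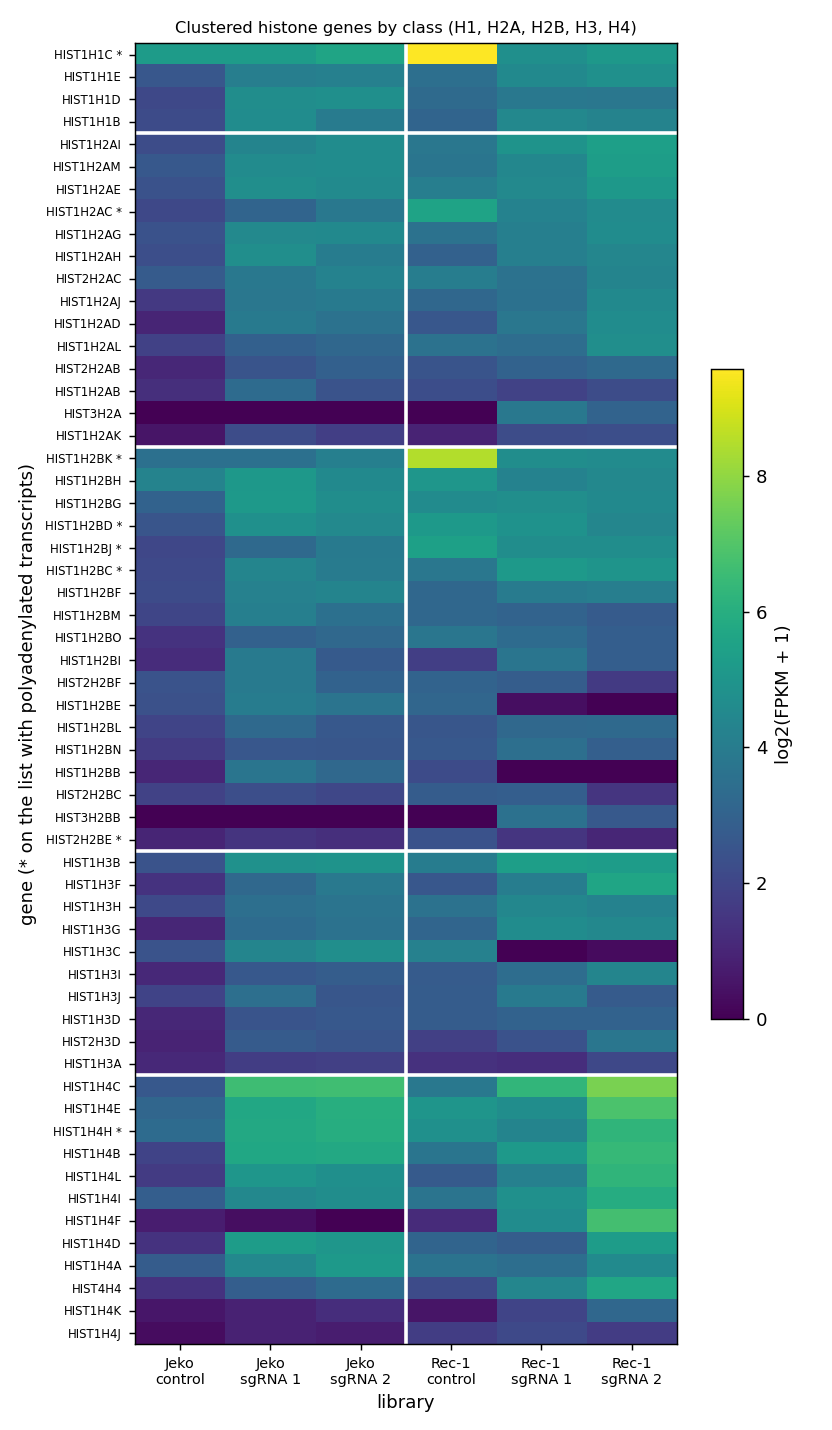
Level of each of the 58 members, as log2(FPKM + 1), in each library (columns), grouped by class from H1 at the top to H4 at the bottom and ordered by mean FPKM within a class. Stars mark the 8 listed genes with polyadenylated transcripts. The Jeko control column is the darkest for most genes, and HIST1H1C and HIST1H2BK are brightest in the Rec-1 control.

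In Jeko cells, most members of every class were higher in both sgRNA libraries than in the control. On the log2(FPKM + 1) scale, which understates the change of low genes, 55 of 58 members were higher in the mean of both sgRNA libraries, with a median difference of 1.71 (1.68 for sgRNA 1 and 1.77 for sgRNA 2), where the median over all 11400 genes tested was 0.00. In both sgRNA libraries, 43 of 58 members were at least 2-fold higher than the control, against 1.89% of all genes tested, and 0 were at least 2-fold lower, against 1.15%. The median was 2.18 with a pseudocount of 0.1. The Jeko control is a single library, so this comparison has no replicate check. In bulk RNA, a change in the number of cells in S phase and a change in histone RNA per cell cannot be told apart.

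Histone mRNAs are short, so other short transcripts were set beside them. Of 632 other protein-coding genes with transcripts of at most 1000 nt, 2 were at least 2-fold higher in both Jeko sgRNA libraries, and their median difference was -0.42. After adjustment for transcript length, the members' median difference in Jeko was 1.83.

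By class, the median difference of the Jeko sgRNA libraries from their control was 2.28 for H4, 1.84 for H1, 1.82 for H2A, 1.66 for H3 and 1.53 for H2B. At least 2-fold higher in both were 9 of 12 H4, 3 of 4 H1, 13 of 14 H2A, 8 of 10 H3 and 10 of 18 H2B genes.

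Fitted over both lines with limma, sgRNA against control with the line as covariate, 0 of 58 members passed an adjusted p of 0.05, against 0.246% of all genes tested. At an unadjusted p under 0.05 there were 30 members, all higher with sgRNA, against 10.5% of all genes tested that were higher at that level. All 4 sgRNA libraries were higher than their own control at 30 members (21% of all genes tested) and lower at 0 (21.1%). All 4 also lay above both controls at 25 members (17%) and below both at 0 (16.3%). Without the Rec-1 control, all 4 sgRNA libraries lay above the Jeko control at 47 members (21.6%). That count sets the Rec-1 sgRNA libraries against a control of the other line, where line and sgRNA cannot be told apart. Left without the Jeko control or without the Rec-1 control, the limma fit rests on a single control library. No result about the family is drawn from its counts of calls.

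Among H4 genes, HIST1H4C had the lowest adjusted p of all members (log2 difference 3.57, SE 0.43, limma adjusted p 0.0831). It was 18.7 and 19.0 times its control level with Jeko sgRNA 1 and 2, and 5.88 and 15.2 times with Rec-1 sgRNA 1 and 2. HIST1H4L measured 2.17 FPKM in Jeko with the empty vector, then 31.8 and 26.5 with guides 1 and 2, whereas in Rec-1 it measured 5.48 with the empty vector, then 17.0 and 75.1 (log2 difference 2.88, SE 0.59, limma adjusted p 0.169). Both controls of HIST1H4L were below all sgRNA libraries. HIST1H4E, second in mean level among H4 genes, stood at 8.04 FPKM in Jeko control cells, against 52.5 and 63.0 under sgRNA 1 and 2, while Rec-1 had 31.0 in its control, against 24.7 and 116 under sgRNA 1 and 2. Its Rec-1 sgRNA libraries thus lay on both sides of their control. The summed H4 level was 3.13 times as high in Rec-1 sgRNA 2 as in Rec-1 sgRNA 1 and 11 of 12 H4 genes were higher there, whereas the H2B sum was 0.824 times as high and 3 of 18 H2B genes were higher there.

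HIST1H4F departed from the other H4 genes. It measured 0.706 FPKM in Jeko with the empty vector, then 0.270 and 0 with guides 1 and 2, whereas in Rec-1 it measured 1.28 with the empty vector, then 24.4 and 103. It was near 0 in all Jeko libraries and high only in the Rec-1 sgRNA libraries. No position for it, HIST1H2BF or HIST1H2BG was matched in the annotation used.

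Among H3 genes, HIST1H3B had the highest mean. It stood at 4.47 FPKM in Jeko control cells, against 27.5 and 28.9 under sgRNA 1 and 2, while Rec-1 had 15.3 in its control, against 40.3 and 38.0 under sgRNA 1 and 2 (log2 difference 1.86, SE 0.29, limma adjusted p 0.131). HIST1H3F measured 1.62 FPKM in Jeko with the empty vector, then 8.46 and 13.8 with guides 1 and 2, whereas in Rec-1 it measured 5.10 with the empty vector, then 15.9 and 48.5. For both H3 genes the controls were lower than all sgRNA libraries. HIST1H4C, HIST1H4L and HIST1H3F were the 3 members whose smallest difference from the own control was largest, and no member was lower in all 4.

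Among H2A genes the leading pair behaved alike. HIST1H2AI stood at 3.65 FPKM in Jeko control cells, against 19.2 and 24.1 under sgRNA 1 and 2, while Rec-1 had 12.7 in its control, against 29.2 and 41.6 under sgRNA 1 and 2. HIST1H2AM measured 5.19 FPKM in Jeko with the empty vector, then 23.5 and 24.5 with guides 1 and 2, whereas in Rec-1 it measured 12.3 with the empty vector, then 20.9 and 39.4. Neither overlapped between control and sgRNA libraries (limma adjusted p 0.137 and 0.169). Their transcripts are similar to others of the family: 36.5% and 32.2% of their 50-base words occur in no other family transcript, so their separate levels are uncertain. That share was under 50% for 5 of the 55 members with an annotated transcript, the others being HIST1H2AJ, HIST1H4J and HIST1H4K.

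Among H1 genes, HIST1H1C was set apart from the other 3. HIST1H1E stood at 4.99 FPKM in Jeko control cells, against 16 and 17.1 under sgRNA 1 and 2, while Rec-1 had 10.3 in its control, against 22.4 and 27.1 under sgRNA 1 and 2 (log2 difference 1.37, SE 0.19, limma adjusted p 0.115). HIST1H1C, by contrast, had a log2 difference of -2.23 (SE 1.04, limma adjusted p 0.263), which became 0.17 without the Rec-1 control.

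The H2B class was mixed. HIST1H2BH, second in mean level among H2B genes, measured 18.5 FPKM in Jeko with the empty vector, then 33.1 and 22.2 with guides 1 and 2, whereas in Rec-1 it measured 32.1 with the empty vector, then 18.0 and 21.1. Its controls overlapped the sgRNA libraries (log2 difference -0.08, SE 0.34, limma adjusted p 0.893). Of the 13 members that were higher than control in both Jeko sgRNA libraries and lower in both Rec-1 sgRNA libraries, 9 were H2B genes.

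The 8 members known to give polyadenylated transcripts were HIST1H1C, HIST1H2AC, HIST1H2BC, HIST1H2BD, HIST1H2BJ, HIST1H2BK, HIST2H2BE and HIST1H4H. Most of their level in the Rec-1 control came from HIST1H1C and HIST1H2BK. Their summed level in Jeko was 72.5 FPKM without sgRNA and 166 and 191 FPKM under sgRNA 1 and 2. In Rec-1 it was 1289.6 FPKM without sgRNA and 178 and 233 FPKM under sgRNA 1 and 2. The sum of the other 50 members was 157, 851, 823, 436, 748 and 1367 FPKM in the same order. The listed genes held 74.7% of all member FPKM in the Rec-1 control and between 14.6% and 31.6% in the other 5 libraries. HIST1H1C and HIST1H2BK alone held 65.0% in the Rec-1 control. The other 6 listed genes summed to 168 FPKM there, or 9.72% of the member sum, against 177 FPKM in Rec-1 sgRNA 2, and between 10.6% and 13.7% of the member sum in the other 5 libraries.

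Within the list, HIST1H2BJ, an H2B gene, stood at 3.07 FPKM in Jeko control cells, against 8.64 and 14.4 under sgRNA 1 and 2, while Rec-1 had 42.2 in its control, against 24.8 and 24.6 under sgRNA 1 and 2. HIST1H2AC, an H2A gene, measured 3.17 FPKM in Jeko with the empty vector, then 7.39 and 13.4 with guides 1 and 2, whereas in Rec-1 it measured 45.6 with the empty vector, then 17.8 and 23.7. HIST1H2BD stood at 4.81 FPKM in Jeko control cells, against 26.7 and 21.7 under sgRNA 1 and 2, while Rec-1 had 35.6 in its control, against 28.8 and 20.2 under sgRNA 1 and 2. All 3 had their highest level in the Rec-1 control and their lowest in the Jeko control. HIST2H2BE, on chromosome 1, did the same, at 0.995 FPKM for the Jeko control, 1.71 and 1.46 under Jeko guides 1 and 2, 4.38 for the Rec-1 control, and 1.79 and 1.06 under Rec-1 guides 1 and 2.

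HIST1H2BC and HIST1H4H followed the other members more closely. HIST1H2BC measured 3.30 FPKM in Jeko with the empty vector, then 19.7 and 14.8 with guides 1 and 2, whereas in Rec-1 it measured 12.8 with the empty vector, then 35.4 and 30.3, so that its controls lay below all sgRNA libraries (log2 difference 1.68, SE 0.26, limma adjusted p 0.131). HIST1H4H stood at 9.08 FPKM in Jeko control cells, against 53.4 and 61.4 under sgRNA 1 and 2, while Rec-1 had 27.0 in its control, against 18.7 and 76.7 under sgRNA 1 and 2. The order of its levels over the 6 libraries was that of HIST1H4E, an H4 gene outside the list. In Jeko, 5 of 8 listed genes and 38 of 50 others were at least 2-fold higher in both sgRNA libraries, and the exceptions were HIST1H1C, HIST1H2BK and HIST2H2BE. In Rec-1, 1 of 8 listed genes was at least 2-fold higher in both and 2 were lower, with a median difference of -0.93, against 19 and 3 of the 50 others, with a median of 0.81.

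An annotated long 3′ end did not pick out the same genes. A 3′ untranslated region over 200 nt was annotated for 13 members, 6 of the 8 listed genes among them; HIST1H1C and HIST1H2BK had at most 47 and 57 nt. The median difference in Jeko was 1.48 for these 13 members and 1.90 for the 45 without one.

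The controls of both lines, which correlated at 0.989 over other protein-coding genes, differed at most members. Higher in the Rec-1 control than in the Jeko control were 55 of 58 members, with a median difference of 1.21. At least 2-fold higher were 37 of 58, against 1.68% of all genes tested, and 0 were at least 2-fold lower, against 0.833%. Of the 89 protein-coding genes at least 2-fold higher in the Rec-1 control, which were 0.862% of protein-coding genes tested, 35 were members, or 39.3% of those genes and 60.3% of the members. HIST1H2BK had the largest difference of all 89 and HIST1H1C the third, at 34 and 20.3 times the Jeko control level. All 8 listed genes were at least 2-fold higher, with a median difference of 3.03, and 29 of the 50 others, with a median of 1.14. The differences of HIST1H2BC (1.68) and HIST1H4H (1.48) were within the range of members outside the list, such as HIST1H2BO (2.36) and HIST1H3G (2.11). So was that of HIST2H2BE, at 0.995 FPKM in the Jeko control and 4.38 FPKM in the Rec-1 control. With 1 library each, there is no test of this difference.

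**Figure D3:**
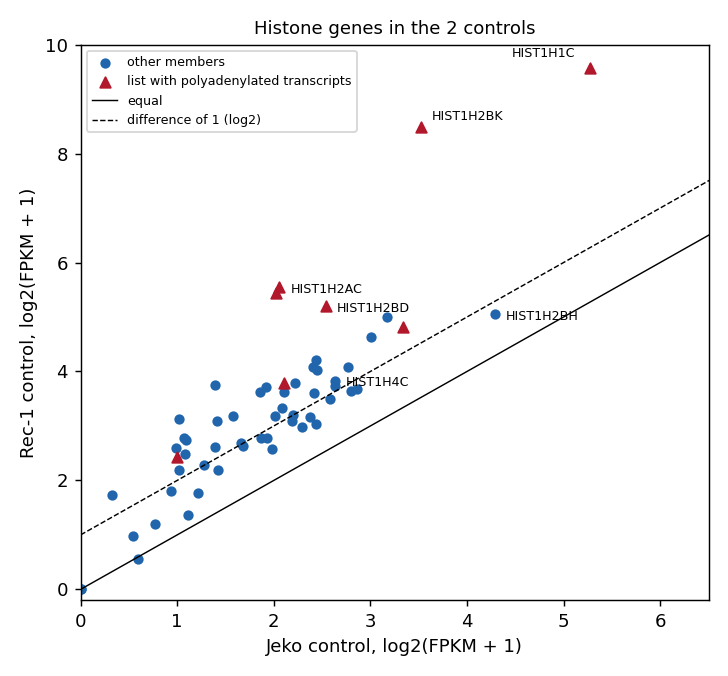
Level of each member in the Rec-1 control (vertical) against the Jeko control (horizontal), both as log2(FPKM + 1). Triangles are the 8 listed genes with polyadenylated transcripts, the solid line marks equal levels and the dashed line a difference of 1. All 8 triangles lie above the dashed line, with HIST1H1C and HIST1H2BK farthest above.

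In Rec-1, 42 of 58 members were higher in the mean of both sgRNA libraries than in their control, with a median difference of 0.71 (0.53 for sgRNA 1 and 1.03 for sgRNA 2). At least 2-fold higher in both were 20 members, against 11.9% of all genes tested, and 5 were at least 2-fold lower, against 11.4%. The 20 include HIST1H4F, HIST1H4K, HIST3H2A and HIST3H2BB, the 4 members whose mean over the other 4 libraries was under 1 FPKM and which therefore became members through the Rec-1 sgRNA libraries. By class, the median difference was 1.86 for H4, 0.92 for H3, 0.84 for H1, 0.84 for H2A and -0.58 for H2B.

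**Figure D4:**
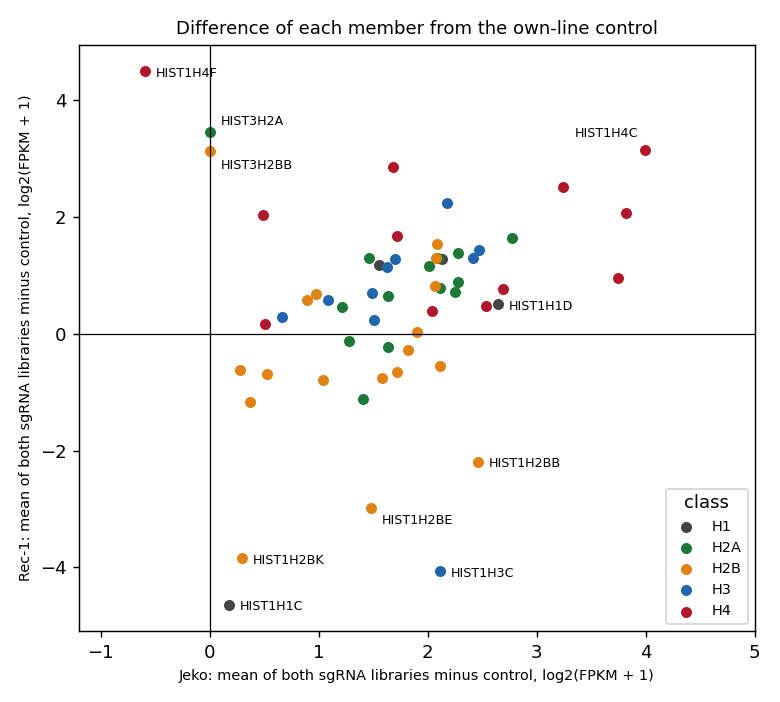
Difference of each member from the control of its own line, as the mean of both sgRNA libraries minus the control on the log2(FPKM + 1) scale, in Jeko (horizontal) and Rec-1 (vertical), coloured by class. Most members lie to the right of 0, with 55 of 58 higher in Jeko, and 5 lie far below 0 in Rec-1: HIST1H1C, HIST1H2BK, HIST1H3C, HIST1H2BE and HIST1H2BB.

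The difference between the lines in the effect of sgRNA passed the limma test at 7 members, against 6.94% of all genes tested, so the count itself is not a result about the family. It was 3, 1, 4 and 3 when Jeko sgRNA 1, Jeko sgRNA 2, Rec-1 sgRNA 1 and Rec-1 sgRNA 2 were left out in turn. HIST1H1C (interaction -4.81, SE 0.41, limma adjusted p 0.0120) and HIST1H2BK (-4.14, SE 0.46, adjusted p 0.0218) were among them, with the values given above. HIST1H3C, an H3 gene, measured 4.40 FPKM in Jeko with the empty vector, then 19.5 and 25.7 with guides 1 and 2, whereas in Rec-1 it measured 17.5 with the empty vector, then 0 and 0.221 (interaction -6.18, SE 0.38, limma adjusted p 0.00809). HIST1H2BB measured 1.02 FPKM in Jeko with the empty vector, then 12.1 and 8.50 with guides 1 and 2, but in Rec-1 it measured 3.56 with the empty vector and was listed at 0 in both Rec-1 sgRNA libraries. HIST1H2BE stood at 4.18 FPKM in Jeko control cells, against 15.2 and 12.0 under sgRNA 1 and 2, while Rec-1 had 7.91 in its control, against 0.275 and 0 under sgRNA 1 and 2. These 3 genes were present in all Jeko libraries and the Rec-1 control and at or near 0 in both Rec-1 sgRNA libraries. HIST1H1D, an H1 gene, measured 3.24 FPKM in Jeko with the empty vector, then 24.9 and 26.1 with guides 1 and 2, whereas in Rec-1 it measured 9.01 with the empty vector, then 13.4 and 13.0, so that it was higher than control in both lines but by less in Rec-1. HIST3H2A was listed at 0 in the Jeko libraries and the Rec-1 control and was 13.3 and 7.32 FPKM in Rec-1 sgRNA 1 and 2, the libraries through which it became a member, so its call is a description only and 6 calls are left without it. Every interaction rests on the single Rec-1 control and single Jeko control, and CCND1 moved with it as given above.

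Compared without either control, Rec-1 sgRNA against Jeko sgRNA, 9 members passed the limma test, against 25.9% of all genes tested, and this count too is not a result about the family. It was 3 without Jeko sgRNA 1 and 3 without Jeko sgRNA 2. Lower in Rec-1 were HIST1H3C (log2 difference -4.40, limma adjusted p 0.00176), HIST1H2BE (-3.68, adjusted p 0.00234), HIST1H2BB (-3.48, adjusted p 0.00245) and HIST1H1D (-0.90, adjusted p 0.0265). Higher in Rec-1 were HIST1H3G (1.07, limma adjusted p 0.0261) and HIST1H4J (1.07, adjusted p 0.0322). The other 3 calls, HIST1H4F (5.51), HIST3H2A (3.45) and HIST3H2BB (3.13), are genes that became members through the Rec-1 sgRNA libraries, so they had to be higher there and their differences are given as a description, which leaves 6 calls. HIST3H2BB was listed at 0 in the same 4 libraries as HIST3H2A and was 10.9 and 5.45 FPKM in Rec-1 sgRNA 1 and 2. HIST1H3G stood at 1.03 FPKM in Jeko control cells, against 9.27 and 11.3 under sgRNA 1 and 2, while Rec-1 had 7.75 in its control, against 24.0 and 21.4 under sgRNA 1 and 2. HIST1H1C and HIST1H2BK did not pass this test (-0.50, SE 0.24, adjusted p 0.190 and 0.83, SE 0.27, adjusted p 0.0938 by limma).

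Some of the genes whose levels in the Rec-1 sgRNA libraries were unlike those in the other 4 libraries lay next to each other. HIST1H2BB (chr6:26043455-26043941, minus strand) and HIST1H3C (chr6:26045612-26046097, plus strand) are neighbours that point away from each other. HIST3H2A (chr1:228622478-228645574, minus strand) and HIST3H2BB (chr1:228645804-228650805, plus strand) likewise start close together on opposite strands and were listed at 0 in the same 4 libraries.

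By genomic cluster, 49 members belonged to HIST1 on chromosome 6, 6 to HIST2 and 2 to HIST3 on chromosome 1, and 1 to HIST4 on chromosome 12. HIST1 genes held between 91.3% and 97.5% of the member FPKM in each library. Some HIST2 rows outside the members could not be measured apart. For HIST2H3A, HIST2H4A and HIST2H4B, listed at 0 in every library, 0% of the 50-base words occur in no other family transcript. For HIST2H3C, with a mean of 0.02 FPKM, that share was 0.8%. Their separate levels are uncertain, and so is the share of HIST2. HIST1 falls into a first group of 25 members and a second of 21, with a gap of 815839 bases between the annotated starts on either side. At least 2-fold higher in both Jeko sgRNA libraries were 22 of 25 in the first group, with a median difference of 2.12, and 15 of 21 in the second, with a median of 1.63. In Rec-1 these medians were 0.50 and 0.79. HIST2 genes had a median difference of 1.16 in Jeko and -0.37 in Rec-1. HIST4H4, the single HIST4 gene and an H4 gene, measured 1.67 FPKM in Jeko with the empty vector, then 6.18 and 9.27 with guides 1 and 2, whereas in Rec-1 it measured 3.55 with the empty vector, then 20.3 and 49.2.

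The members nearest the level of 1 FPKM were HIST1H4J and HIST2H2BE inside it, with means of 1.61 and 1.90, and HIST1H3E and HIST1H1T outside it, with means of 0.76 and 0.03. HIST1H4J stood at 0.253 FPKM in Jeko control cells, against 0.871 and 0.689 under sgRNA 1 and 2, while Rec-1 had 2.30 in its control, against 3.34 and 2.21 under sgRNA 1 and 2.

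Genes that work with histone mRNAs or proteins, and histone genes outside the clusters, gave no call for sgRNA. Of all 10323 protein-coding genes tested, 0 were called as higher and 1 as lower. The absence of calls is therefore not a result about these genes. Of 10 replication-independent histone genes, most of them transcribed throughout the cell cycle with polyadenylated mRNAs, 8 were tested. For sgRNA, 0 passed the limma test (1 at an unadjusted p under 0.05, which 21.1% of all genes tested reached). Higher in Jeko were 0 of 8, against 5672 of all 11400 genes tested. H3F3A, 1 of the 8, was listed at 0 in every Jeko library and so could not differ there. The most abundant, H2AFZ, measured 920 FPKM in Jeko with the empty vector, then 662 and 616 with guides 1 and 2, whereas in Rec-1 it measured 752 with the empty vector, then 410 and 702. Of 20 genes for histone mRNA processing and transcription, 19 were tested and 0 passed the limma test (5 at an unadjusted p under 0.05), with a median log2 difference of -0.19. SLBP, which binds the stem-loop and is named here although its level is not among the highest of that list, stood at 93.4 FPKM in Jeko control cells, against 111 and 70.6 under sgRNA 1 and 2, while Rec-1 had 70.6 in its control, against 58.9 and 58.8 under sgRNA 1 and 2. Of 15 histone chaperone genes, 14 were tested and 0 passed it (2 at an unadjusted p under 0.05), with a median of -0.13.

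S-phase genes gave no call for sgRNA either, which likewise is not a result about them. At least 2-fold lower than control in both Rec-1 sgRNA libraries were 10 of 22, against 11.4% of all genes tested. In both Jeko sgRNA libraries there were 0, against 1.15%. Of 22 tested, 0 passed the limma test (5 at an unadjusted p under 0.05), and the median difference was -0.54. Their summed level in Jeko was 2650.5 FPKM without sgRNA and 2681 and 1891 FPKM under sgRNA 1 and 2. In Rec-1 it was 1848 FPKM without sgRNA and 850.3 and 1028 FPKM under sgRNA 1 and 2. PCNA, the sliding clamp of DNA polymerases, measured 529.9 FPKM in Jeko with the empty vector, then 522 and 329 with guides 1 and 2, whereas in Rec-1 it measured 328 with the empty vector, then 144 and 283. Between the lines, 13 of the 22 passed the limma test as lower in Rec-1 sgRNA than in Jeko sgRNA, against 13% of all genes tested.

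Several small RNAs that carry no poly(A) tail rose with sgRNA. Of 14 such genes listed, 8 were tested and 3 passed the limma test, all higher, against 0.184% of all genes tested that passed as higher. Higher than control were 7 of 8 in Jeko and 8 of 8 in Rec-1, against 5672 and 5641 of all 11400 genes tested. RMRP, the RNA of the RNase MRP complex, stood at 74.6 FPKM in Jeko control cells, against 2302 and 1422 under sgRNA 1 and 2, while Rec-1 had 173 in its control, against 2529 and 6494 under sgRNA 1 and 2 (log2 difference 4.56, SE 0.42, limma adjusted p 0.0304). RPPH1, the RNA of RNase P (4.46, SE 0.45, adjusted p 0.0388), and RNU11, a spliceosomal RNA (3.39, SE 0.28, adjusted p 0.0249), also passed by limma. Of 212 small nucleolar and Cajal body RNA genes tested, 18 passed as higher and 3 as lower, against 0.184% and 0.0614% of all genes tested. Their median difference over both lines was 1.59. It was 0.90 with Jeko sgRNA 1 and 0 with Jeko sgRNA 2, where 98 of 212 were higher, against 5655 of all 11400 genes tested. With Rec-1 sgRNA 1 and 2 the median difference was 1.69 and 1.61. In the controls and the Jeko libraries, RMRP and the summed level of the 50 members outside the list had the same order. The Jeko control was lowest, the Rec-1 control next and both Jeko sgRNA libraries above. Rec-1 sgRNA 1 had no common place in that order. RMRP was higher there than in both Jeko sgRNA libraries, whereas the 50 members, at 748 FPKM, were below both (851 and 823 FPKM). Whether the libraries were made from poly(A)-selected RNA is not given in the sources used here, and the part of the recovery of RNA without poly(A) tails in the members' differences was not tested.

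**Figure D5:**
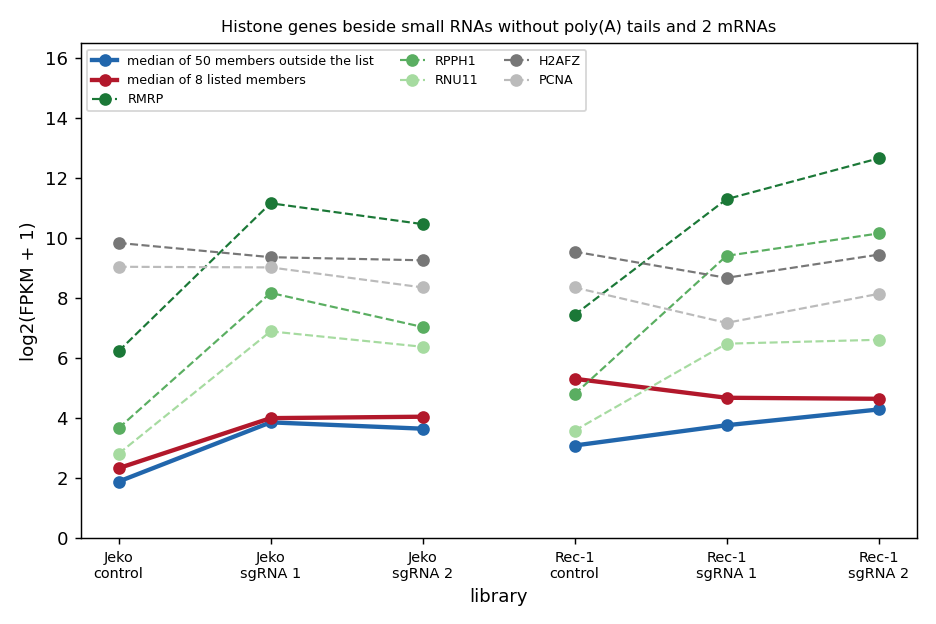
Level in each library, as log2(FPKM + 1), of the median of the 50 members outside the list and of the 8 listed members (solid lines), of 3 small RNAs without poly(A) tails and of the mRNAs H2AFZ and PCNA (dashed lines). The lines join the 3 libraries of a cell line only. RMRP is lowest in the 2 controls, the members outside the list are also lowest there, and H2AFZ and PCNA are not.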

How the data were processed

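RNA was measured in 6 libraries, 1 control and 2 sgRNA libraries for each line. The authors deposited FPKM, scaled for library size and transcript length. TopHat and hg19 are named in the submitters' processing notes, and the program for FPKM, the annotation and strand use are not given in the sources used here. Depth is unknown, so no counting interval was computed, and an exact 0 may be a failed estimate. Values were analysed as log2(FPKM + 1). Genes averaging 1 FPKM or more, 11400 in all, were tested with limma 3.58.1 in R 4.3.3 (eBayes with a trend, Benjamini-Hochberg adjustment, threshold 0.05) for sgRNA against control with line as covariate, their interaction, and Rec-1 sgRNA against Jeko sgRNA. Comparisons with a single control count genes at least 2-fold (1 on the log2 scale) apart in both guides. The fits were tested on simulated data. Guide numbers served as replicates. Members, lists and motifs were chosen with earlier results of these data known; the list of genes with polyadenylated transcripts came from general knowledge. Named with all values are the 2 highest members of each class, the listed genes, the 3 with the largest smallest difference, those nearest the threshold and all called, with up to 4 of the highest genes of other lists; HIST1H4B, HIST4H4, SLBP and H3F3A were added after their values were seen. Alternatives covered pseudocount, filter, scaling, transcript length, protein-coding genes, a replicate block and each library left out. Python 3.11.15, numpy 2.4.6, pandas 2.3.3 and matplotlib 3.10.9 did the rest.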

Additional observations from a re-analysis of the deposited data

Results flagged for a closer look

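The effect of sgRNA differed between the lines at 7 members by the limma interaction term (Rec-1 difference minus Jeko difference, log2). The values were -6.18 for HIST1H3C, -4.81 for HIST1H1C, -4.65 for HIST1H2BB, -4.46 for HIST1H2BE, -4.14 for HIST1H2BK and -2.14 for HIST1H1D, and 3.45 for HIST3H2A. For HIST1H1C and HIST1H2BK the Rec-1 control held the highest level, and the Rec-1 and Jeko sgRNA libraries did not pass the test against each other. For HIST1H3C, HIST1H2BB, HIST1H2BE and HIST1H1D the sgRNA libraries of the lines passed that test too. HIST3H2A became a member through the Rec-1 sgRNA libraries, so its value is a description. The Rec-1 control correlated with the Jeko control at 0.989 over other protein-coding genes, and the part of this in the 7 differences was not tested.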

How the results depend on the processing

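The count of members called for sgRNA against control was 0 and became 1 with a minimum mean of 5 FPKM and 6 in the Rec-1 libraries alone, and ran from 0 to 16 as each library was left out. For the interaction, 7 became 13 among protein-coding genes only and 11 with adjustment for transcript length, and ran from 1 to 4 as each sgRNA library was left out; it cannot be fitted without a control. For Rec-1 sgRNA against Jeko sgRNA, 9 became 5 with a minimum mean of 5 FPKM and 15 among protein-coding genes only, and ran from 3 to 9 as each library was left out; 3 were left without Jeko sgRNA 1 and without Jeko sgRNA 2. For sgRNA against control, the counts in the Rec-1 libraries alone and without the Jeko or the Rec-1 control rest on a single control library. They carry no share of all genes tested called under the same setting, so no result about the family is drawn from them. No label says that guide numbers pair the libraries. Deviations of same-numbered libraries correlated at 0.0998 over all genes tested and 0.208 over protein-coding genes, with 2 pairs only. A replicate block on guide number gave 0, 5 and 14 calls. With a pseudocount of 0.1, 1 member in place of 0 was at least 2-fold lower in Jeko and the median difference was 2.18; adjusted for transcript length it was 1.83. At 1.5-fold, 8 members in place of 5 were lower in Rec-1. Without the Rec-1 control, all sgRNA libraries lay above the Jeko control at 47 members in place of 25, with line and sgRNA not separable for the Rec-1 libraries. Of single members, the log2 difference for sgRNA turned direction as libraries were left out, ranging from -4.64 to 0.17 for HIST1H1C, -3.84 to 0.29 for HIST1H2BK, -1.17 to 0.37 for HIST2H2BE, -4.07 to 2.12 for HIST1H3C, -2.98 to 1.48 for HIST1H2BE and -0.60 to 4.49 for HIST1H4F, where the Rec-1 control decided, from -0.69 to 0.53 for HIST1H2BH, which turned without the Rec-1 control and without Rec-1 sgRNA 1, and from -0.54 to 2.11 for HIST1H2BD and -0.75 to 1.58 for HIST1H2BJ, where the Jeko control did. They were -1.11 to 1.40 for HIST1H2AC, which turned also without Jeko sgRNA 2, and -2.19 to 2.46 for HIST1H2BB, which turned also without either Jeko sgRNA library; HIST1H2BB was also -1.002 with a pseudocount of 0.1. The cause was not tested. The other 63 values of counts and medians stayed within 1.5 times or the spread. Unknown depth limits the low members most.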
